A study of Mus musculus with 19 samples.

Results

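The potassium channel genes described here are the Kcn genes of the mouse: the pore-forming subunits, their auxiliary subunits and 2 noncoding RNAs named after their host genes. They were taken by symbol, as every gene whose name starts with Kcn and a further letter, with at least 100 counts summed over all kept cells. Of 99 such genes in a table of 52636 genes, 53 had enough counts, 51 of them coding. The 46 genes left out held 2 to 87 counts each. The members just inside the minimum were Kcnmb4os2, 1 count above it, and Kcnn1, 16 counts above it, and the genes just outside it were Kcnj6 with 87 counts, Kcnab3 with 86 and Kcnj10 with 83. No measured difference between classes of neurons was used to choose the members, but some reached the minimum only through 1 class, as given below.

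Single cell bodies without fluorescence were picked by hand from the lateral hypothalamic area (LHA) of 7 male Agrp-IRES-Cre x Ai9 mice of 6 to 8 weeks, a cross in which cells with a history of Agrp promoter activity carry a red fluorescent protein. All samples form 1 group: 19 plates of wells, with no treatment and no second genotype. The comparisons are therefore between classes of neurons picked into the same plates, and the plate is the replicate (plates are numbered 1 to 19 in accession order). The labels do not say which mouse a plate came from. Plates that share a mouse would make the p-values too small.

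Potassium channels let potassium ions leave a neuron and so set its resting potential, end its action potentials and space its firing. The voltage-gated families (Kv) open on depolarization, inward rectifiers (Kir) and 2-pore-domain channels (K2P) act near rest, and further families open on calcium or sodium ions. Neurons that make orexin (gene Hcrt) hold the animal awake, and neurons that make melanin-concentrating hormone (gene Pmch) are tied to feeding and sleep; both lie in the LHA among GABA neurons, and acid-sensitive K2P channels and ATP-sensitive Kir channels have been studied in orexin neurons as sensors of glucose and metabolic state.

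Cells were split by their own transcripts, among wells labelled LHA with at least 1000 genes detected. Pmch neurons (68 cells) had at least 1% of their counts from Pmch, and Hcrt neurons (1065 cells) had at least 1% from Hcrt. Cells under 1% of both formed the Gad neurons (327 cells, at least 5 counts of Gad1 and Gad2, the enzymes of GABA synthesis) and the Gad-low neurons (71 cells, fewer). A further 3 cells passed 1% of both peptides and were left out, which gives 1534 cells in all. The median cell held 59063 counts in Pmch neurons, 45722 in Hcrt neurons, 24486 in Gad neurons and 24969 in Gad-low neurons, and plates held 1835641 to 5067927 counts. Gad counts did not separate Pmch neurons from Gad neurons, since 97.1% of Pmch neurons also reached 5 counts. Of the Gad neurons, 151 held between 0.2% and 1% of Hcrt or Pmch, as did 36 of the Gad-low neurons.

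Levels are given as CPM, the counts of a gene in 1000000 counts of all genes other than Hcrt and Pmch, summed over the cells of a class in a plate, in plates with at least 3 cells of the class. All 8 pan-neuronal markers were detected in every class, with plate medians of 9920 CPM in Pmch, 7260 in Hcrt, 6540 in Gad and 5940 in Gad-low neurons. Gad-low was the class whose name held least well. In plate 19 all 4 of its wells failed a neuron gate (pan-neuronal genes detected and above every list of non-neuronal markers), in plate 14 it was 4 of 9 wells, and in plate 9 it was 1 of 11. Over all Gad-low plates the pan-neuronal list ran as low as 127 CPM, the oligodendrocyte list as high as 9890, the astrocyte list as high as 449 and the mural list as high as 390. The oligodendrocyte list also reached 1810 CPM in 1 plate of Hcrt neurons and 954 in 1 plate of Gad neurons. The part of these cells in the Gad-low results was measured only by repeating the comparisons with the gate.

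The 51 coding members together reached 1260 ± 239 CPM in Pmch neurons (n = 13 plates), 1130 ± 95.5 CPM in Hcrt neurons (n = 19), 1810 ± 181 CPM in Gad neurons (n = 16) and 1510 ± 618 CPM in Gad-low neurons (n = 10, all SD). Every Gad plate, at 1480 to 2140 CPM, lay above every Hcrt plate, at 962 to 1330 CPM. These CPM carry no TMM scaling between libraries. Without it the median log2 fold change of all genes, Hcrt over Gad, was -0.16, against 0.04 with it. Whether the plates stay apart with TMM scaling was not tested. Gad-low plates 14 and 19 stood apart from the rest of their class at 731 and 78.1 CPM, and the other 8 held 1520 to 1970 CPM. Among the 17 members with at least 1000 counts in Hcrt neurons, the coefficient of variation over the 19 Hcrt plates lay between 15.1% (Kcnma1) and 32.2% (Kcnd2), with a median of 19.7%, against 4.24% to 13.6% from counting alone. A single noncoding RNA, Kcnq1ot1, held 16.6% of the 92721 counts of all members.

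**Figure D1:**
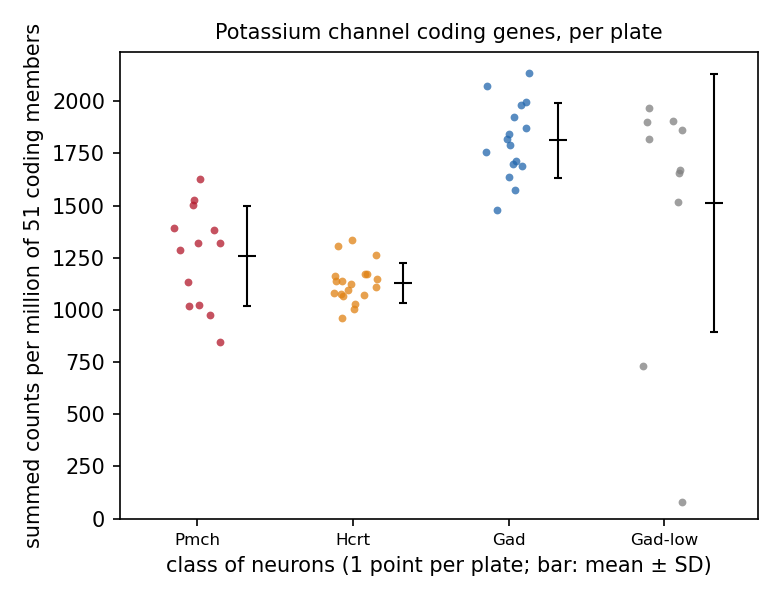
Summed CPM of the 51 coding potassium channel genes (y axis) for each plate (points) in 4 classes of neurons (x axis), with the mean and SD as bars. All 16 Gad plates lie above all 19 Hcrt plates on this scale, which carries no TMM scaling, and 2 Gad-low plates lie far below the others.

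Wells without a picked cell gave the background. The 64 wells labelled ERCC and 39 of the 40 labelled empty held 47 member counts in all and at most 3 each, out of 27814 counts. As a share of counts this is no lower than the 92721 of 69702601 in kept LHA cells. The last empty well held 245 and is described among the results for a closer look. The 68 wells labelled qRNA, whose content the labels do not state, held 182 member counts, or 141 CPM, and 1 count of Kcna5. Kept LHA cells held 1500 CPM and 2872 counts of Kcna5.

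Promoter windows of 3 members are shown, because the results below turn on them: Kcna5 was higher and Kcnh1 lower in Hcrt than in Gad neurons without overlap of plates, and Kcnc4 separated Pmch from Hcrt neurons without overlap. Each runs from 250 bases before to 50 bases after the RefSeq start in build GRCm38.p6, 5′ to 3′ on the strand of the gene, and capitals mark the GC box (GGGCGG, on either strand).
Kcna5, chr6:126535506-126535805, minus strand: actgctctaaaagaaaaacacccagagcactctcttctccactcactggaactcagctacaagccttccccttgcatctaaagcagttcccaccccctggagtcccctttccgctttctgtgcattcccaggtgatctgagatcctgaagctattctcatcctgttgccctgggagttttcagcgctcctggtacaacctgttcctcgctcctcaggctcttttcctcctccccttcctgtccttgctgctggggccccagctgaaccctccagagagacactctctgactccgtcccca
Kcnc4, chr3:107458849-107459148, minus strand: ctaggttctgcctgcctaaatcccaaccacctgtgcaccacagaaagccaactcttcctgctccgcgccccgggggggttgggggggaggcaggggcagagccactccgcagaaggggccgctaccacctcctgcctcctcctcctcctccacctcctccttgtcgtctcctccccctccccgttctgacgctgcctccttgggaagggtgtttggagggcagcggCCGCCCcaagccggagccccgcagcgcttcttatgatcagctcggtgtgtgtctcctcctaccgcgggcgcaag
Kcnh1, chr1:192190527-192190826, plus strand: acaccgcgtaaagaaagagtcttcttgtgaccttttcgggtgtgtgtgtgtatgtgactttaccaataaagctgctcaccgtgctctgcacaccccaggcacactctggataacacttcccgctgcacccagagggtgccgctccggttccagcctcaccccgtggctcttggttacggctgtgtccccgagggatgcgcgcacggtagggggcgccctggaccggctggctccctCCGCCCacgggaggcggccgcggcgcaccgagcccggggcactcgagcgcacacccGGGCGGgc
The Kcna5 window held 4 CG dinucleotides and no GC box, the Kcnc4 window 17 and 1 GC box, and the Kcnh1 window 27 and 2 GC boxes. The median over all promoters of the table was 7 CG dinucleotides, and 35.7% of its 32851 promoters held a GC box on either strand. A cAMP response element (TGACGTCA) and a TATA box (TATAAA), searched on both strands and present in 1.79% and 13.6% of all promoters, had no match in these 3 windows. Of the 53 members, 38 were matched to a promoter in the table.

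Hcrt neurons were set against Gad neurons first, as the 2 largest classes. Potassium channel genes were mostly lower in Hcrt neurons. Of 32 members tested over 16 plates with edgeR (833 Hcrt and 321 Gad cells), 22 passed an adjusted p of 0.05, which is 68.8% of those tested, against 39% of all genes. In Hcrt neurons 4 members were higher, where 21.8% of all genes were, and 18 were lower, where 17.2% of all genes were. The median log2 fold change was -0.57 over the members tested and 0.04 over all genes tested. Without TMM, and with library sizes that leave out Hcrt and Pmch, 2 members were higher and 19 lower, all genes split into 1310 higher and 2538 lower, where the TMM scaling gave 2021 higher and 1594 lower, and the median of all genes was -0.16. The other 21 members did not pass the filter on low counts and are given below by their counts.

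The Kv1 family, delayed and inactivating rectifiers of axon and soma, split between 1 gene and the others. Kcna5, a delayed rectifier best known from the heart atrium, had 34.8, 56.7 and 79.6 CPM (lowest, median and highest plate) in Hcrt neurons, against 0, 4.68 and 18.9 CPM in Gad neurons. The lowest Hcrt plate was above the highest Gad plate. Its log2 fold change was 3.39 ± 0.29 (SE, edgeR adjusted p = 3.83e-14), higher in Hcrt neurons in 16 of 16 plates. Kcna1, a low-threshold axonal channel, had 1.7, 5.66 and 15.0 CPM in Hcrt neurons, against 0, 35.7 and 72.1 CPM in Gad neurons. The classes overlapped, and Kcna1 fell by 2.26 ± 0.37 on the log2 scale (adjusted p = 1.66e-06), in 14 of 16 plates. Kcna2, its usual partner in axons, had 9.91, 15.8 and 32.9 CPM in Hcrt neurons, against 0, 62.4 and 134 CPM in Gad neurons. The classes overlapped here too, and Kcna2 fell by 1.62 ± 0.24 on the log2 scale (adjusted p = 1.42e-07). Kcna6 was also called, with a log2 fold change of -1.13, but not with Gad neurons under 0.2% of both peptides (-0.89, adjusted p = 0.201), and Kcna4, a channel that inactivates fast, did not pass the test at -0.59 ± 0.38 (SE).

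In the Kv3 family, channels with fast deactivation that serve fast spiking, 2 members were higher and 1 was lower. Kcnc4, the inactivating member, had 88.8, 143 and 188 CPM in Hcrt neurons, against 64.6, 105.7 and 152 CPM in Gad neurons. The ranges overlapped, but Kcnc4 was higher in Hcrt neurons in 13 of 16 plates, with a log2 fold change of 0.61 ± 0.11 (SE, adjusted p = 6.97e-06). Kcnc2 had 44.0, 64.8 and 96.6 CPM in Hcrt neurons, against 0, 43.8 and 106.8 CPM in Gad neurons. Its log2 fold change was 0.61 ± 0.20 (adjusted p = 0.0101), higher in 12 of 16 plates; it did not pass without TMM and with library sizes that leave out Hcrt and Pmch (0.42, adjusted p = 0.0797), with Gad neurons under 0.2% of both peptides (0.45, 0.176), with Gad neurons of at least 20 Gad counts (0.44, 0.0895) or in 1 fit over 4 classes (0.62, 0.0515). Kcnc1, a main channel of fast-spiking interneurons, had 34.6, 60.8 and 86.2 CPM in Hcrt neurons, against 82.9, 161 and 259 CPM in Gad neurons. The ranges touched at their edges only, every plate had less Kcnc1 in Hcrt neurons, and it fell by 1.27 ± 0.12 on the log2 scale (adjusted p = 2.34e-12).

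Among the Kv2 and Kv4 families and their partners, most called members were lower. Kcnd2, a pore of the subthreshold A-type current, had 12, 20 and 37.6 CPM in Hcrt neurons, against 20.7, 75.1 and 169 CPM in Gad neurons. It was lower in 16 of 16 plates, with a log2 fold change of -1.77 ± 0.19 (adjusted p = 2.45e-11). Kcnf1, a silent subunit that conducts only together with Kv2 subunits, had 3.85, 10.8 and 18.6 CPM in Hcrt neurons, against 27.1, 62.3 and 211 CPM in Gad neurons. The classes did not overlap, and Kcnf1 fell by 2.19 ± 0.23 on the log2 scale (adjusted p = 3.28e-11). Kcnb2 and Kcnd3 did not pass, with log2 fold changes of -0.17 and 0.40. Of the calcium-binding KChIP subunits of Kv4 channels, Kcnip2 had a log2 fold change of 0.61 ± 0.24 (adjusted p = 0.0393), Kcnip1 one of -0.48 ± 0.16 (adjusted p = 0.0133), and Kcnip4 did not pass at 0.12 ± 0.17. The Kcnip2 call was lost when any of plates 3, 8, 9, 10, 11, 13, 15, 18 or 19 was left out (adjusted p up to 0.11) and in 4 other settings (up to 0.502 with Gad neurons under 0.2% of both peptides). The Kcnip1 call was lost in 3 settings, with a log2 fold change of -0.15 (adjusted p = 0.705) with Gad neurons under 0.2% of both peptides. Kcnab2, a beta subunit of Kv1 channels, had a log2 fold change of -0.94 ± 0.21 (adjusted p = 0.000286).

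The remaining voltage-gated members came from the EAG and Kv7 families. Kcnh1, the EAG channel, had 1.86, 9.61 and 15.1 CPM in Hcrt neurons, against 19.9, 39.5 and 124 CPM in Gad neurons. All Gad plates lay above all Hcrt plates, and Kcnh1 fell by 2.33 ± 0.26 on the log2 scale (adjusted p = 1.47e-10). Kcnh2, an ERG channel, did not pass, with a log2 fold change of -0.05 ± 0.24. Kcnq3, a pore of the M-current that limits repetitive firing, was under the count filter with 163 counts in Hcrt and 184 in Gad neurons, or 0, 4.36 and 7.92 CPM in Hcrt neurons against 0, 17.8 and 37.6 CPM in Gad neurons.

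Of the channels opened by ions, Kcnt1, which sodium activates, had 7.26, 20.2 and 29.0 CPM in Hcrt neurons, against 49.3, 75.6 and 206 CPM in Gad neurons. The classes did not overlap, and Kcnt1 fell by 1.81 ± 0.18 on the log2 scale (adjusted p = 8.31e-12). Kcnma1, the large-conductance calcium-activated (BK) channel, had 74.0, 94.5 and 133 CPM in Hcrt neurons, against 21.1, 92.4 and 189 CPM in Gad neurons. Its log2 fold change was 0.04 ± 0.14 (adjusted p = 0.844), so no difference was detected, and the sign changed with the settings. Kcnn3, a small-conductance calcium-activated channel, did not pass either, at 0.21 ± 0.35 on the log2 scale.

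Inward rectifiers and K2P channels act near rest. Kcnj3, a pore subunit of G protein-gated (GIRK) channels, had 4.86, 10.5 and 19.1 CPM in Hcrt neurons, against 0, 25.3 and 82.9 CPM in Gad neurons. It overlapped between the classes and fell by 1.07 ± 0.30 on the log2 scale (adjusted p = 0.00362), a call lost with Gad neurons under 0.2% of both peptides (-0.86, adjusted p = 0.145) and in 1 fit over 4 classes (0.0538). Kcnj9, another GIRK subunit, did not pass, with a log2 fold change of 0.17 ± 0.17 (adjusted p = 0.475), and neither did Kcnj11, the pore of the ATP-sensitive channel, with 0.47 ± 0.29 (adjusted p = 0.202). The levels of Kcnj11 were 11.6, 20.7 and 27.8 CPM in Hcrt neurons, against 0, 19.3 and 41.4 CPM in Gad neurons. Of the K2P channels 4 of 5 tested were lower, where 17.2% of all genes were, and none was higher. With Gad neurons under 0.2% of both peptides none of these 4 calls remained, and Kcnk3 was then under the count filter and not tested. Kcnk3, an acid-sensitive TASK channel, had 1.28, 4.7 and 7.4 CPM in Hcrt neurons, against 0, 26.6 and 98.4 CPM in Gad neurons. In 15 of 16 plates it was lower in Hcrt neurons, with a log2 fold change of -2.83 ± 0.34 (adjusted p = 8.58e-10). Kcnk9, another acid-sensitive TASK channel, was no member, with 14 counts over all cells. Kcnk2, a mechanosensitive channel, was lower by 0.97, Kcnk1 by 0.89 and Kcnk13 by 0.77 on the log2 scale, and Kcnk10 did not pass at -0.30. The Kcnk13 call (adjusted p = 0.0291) was lost without any of plates 11, 12, 18 or 19 (up to 0.0952). Under 0.2% of both peptides Kcnk1 was at -0.52 (adjusted p = 0.309), Kcnk13 at -0.29 (0.678) and the adjusted p of Kcnk2 was 0.0773.

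The noncoding Kcnq1ot1, an imprinted RNA antisense to Kcnq1, had 143, 229 and 285 CPM in Hcrt neurons, against 172, 385 and 635 CPM in Gad neurons. The ranges overlapped, and Kcnq1ot1 fell by 0.55 ± 0.08 on the log2 scale (adjusted p = 1.89e-07), in 15 of 16 plates. The use of strand in counting is not stated, so counts of Kcnq1ot1 and Kcnq1 in shared exons cannot be told apart. The same holds for other members with exons under another gene, among them Kcnip4, Kcnk3, Kcnj3, Kcnma1 and the pair Kcnmb4 and Kcnmb4os2.

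**Figure D2:**
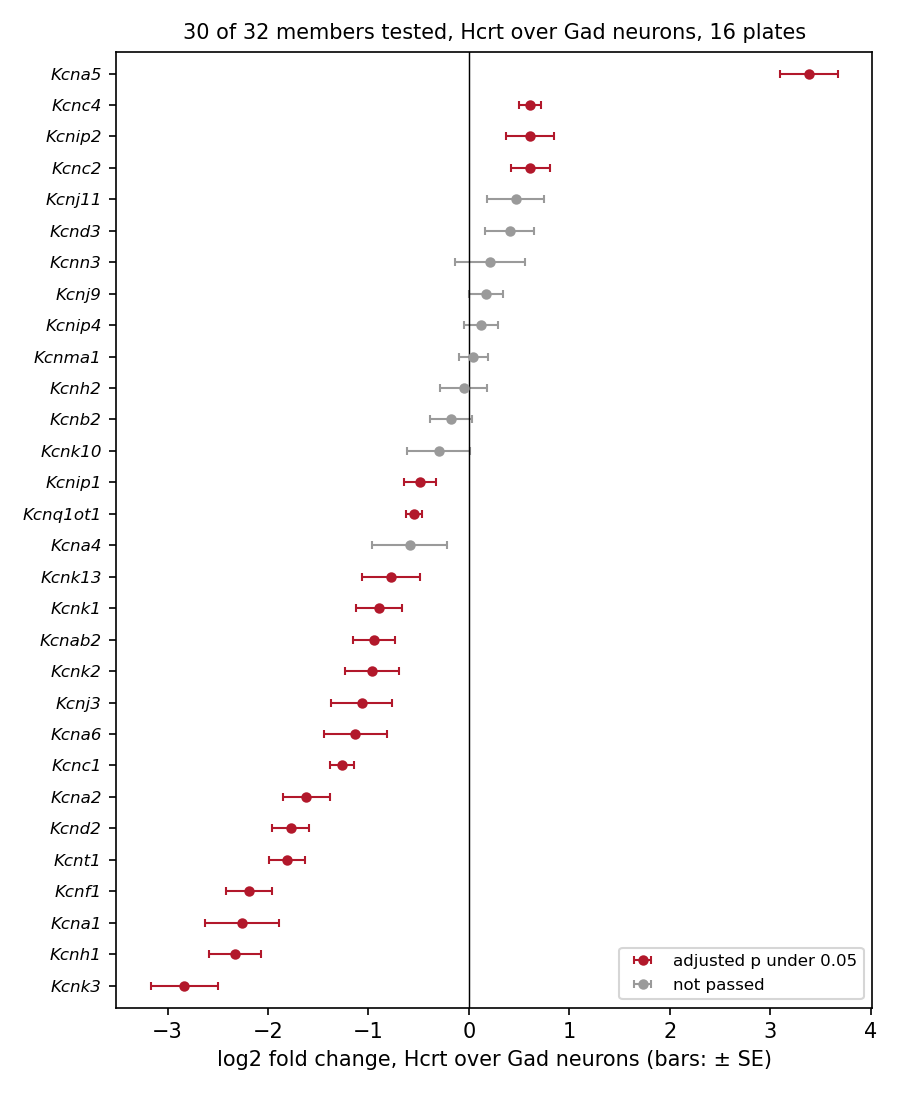
Log2 fold change of Hcrt over Gad neurons (x axis) with its SE for 30 of the 32 members tested over 16 plates (y axis); red points passed an adjusted p of 0.05. Kcna5 stands alone on the right at 3.39, and Kcnk3, at -2.83, is the lowest.

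Of the 21 members under the count filter, several were rich in 1 class. Kcnj5, a GIRK subunit, had 309 counts in Hcrt and 15 in Gad neurons, a ratio of pooled CPM of 5.07 (95% exact counting interval 3.02 to 9.16), higher in Hcrt neurons in 15 of 16 plates. Kcns3, a silent subunit, had 177 counts in Hcrt and 10 in Gad neurons, a ratio of 4.35 (2.31 to 9.23). Kcne1l, a small auxiliary subunit, had a pooled 2.91 CPM in Hcrt neurons and 0 counts in Gad neurons, at least 8.77-fold higher against a floor of 3 counts over the class. All of its 138 counts lay in Hcrt neurons, so it became a member only through the class where it is high. Kcnh4, an ELK channel, had 153 counts in Hcrt and 7 in Gad neurons, a ratio of 5.38 (2.55 to 13.6). Its gene (chr11:100740376-100759942) begins 1126 bases past the 3′ end of Hcrt (chr11:100761069-100762931) on the same strand with no gene between them (GENCODE M21, GRCm38), and Hcrt counts set the class. Whether transcripts running past Hcrt were counted for Kcnh4 was not tested. On the other side, Kcnt2, the second sodium-activated channel, had 9 counts in Hcrt and 95 in Gad neurons, a ratio of 0.0233 (0.0103 to 0.0461), and was lower in 15 of 16 plates. Kcnab1, a Kv1 beta subunit, had 43 counts in Hcrt and 197 in Gad neurons, a ratio of 0.0537 (0.0377 to 0.075), and Kcnn1, a small-conductance calcium-activated channel, had 15 in Hcrt and 56 in Gad neurons, a ratio of 0.0659 (0.0346 to 0.118). These intervals cover counting error only, and these genes were chosen after their values were seen.

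Genes that work with potassium channels were taken as 2 lists. Of 14 accessory proteins, 9 were tested, 2 were higher and 3 were lower in Hcrt neurons, against 21.8% higher and 17.2% lower among all genes, with a median log2 fold change of -0.27. Abcc8, the sulfonylurea receptor that pairs with Kcnj11, averaged 25.2 ± 7.5 CPM in Hcrt neurons and 11.7 ± 9.79 CPM in Gad neurons (SD, n = 16 each), a log2 fold change of 1.31 ± 0.27 (SE, adjusted p = 8.68e-05). Dpp10, a Kv4 auxiliary protein, averaged 6.84 ± 2.88 CPM in Hcrt neurons and 55.3 ± 21.8 CPM in Gad neurons, and fell by 2.87 ± 0.26 on the log2 scale (adjusted p = 1.94e-13). Adam22 and Cntnap2, which sit with Kv1 channels along the axon, were lower by 0.87 and 0.72. Vapb, a membrane protein at Kv2 contact sites, had a log2 fold change of 0.55 (adjusted p = 0.0183), and did not pass without TMM and with library sizes that leave out Hcrt and Pmch (0.36, 0.126). Of 10 potassium pump and cotransporter genes, 9 were tested, 3 were higher and 3 were lower. Atp1b3, a beta subunit of the sodium pump, was higher by 0.82 on the log2 scale, and Atp1b2, of the same kind, was lower by 0.91. The direction of Atp1b1, another beta subunit, depended on the scaling. It passed at 0.11 (adjusted p = 0.0483), yet averaged 1840 CPM in Hcrt neurons and 1980 CPM in Gad neurons, was lower in 11 of 16 plates, and was at -0.09 (0.0928) without TMM and with library sizes that leave out Hcrt and Pmch.

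**Figure D3:**
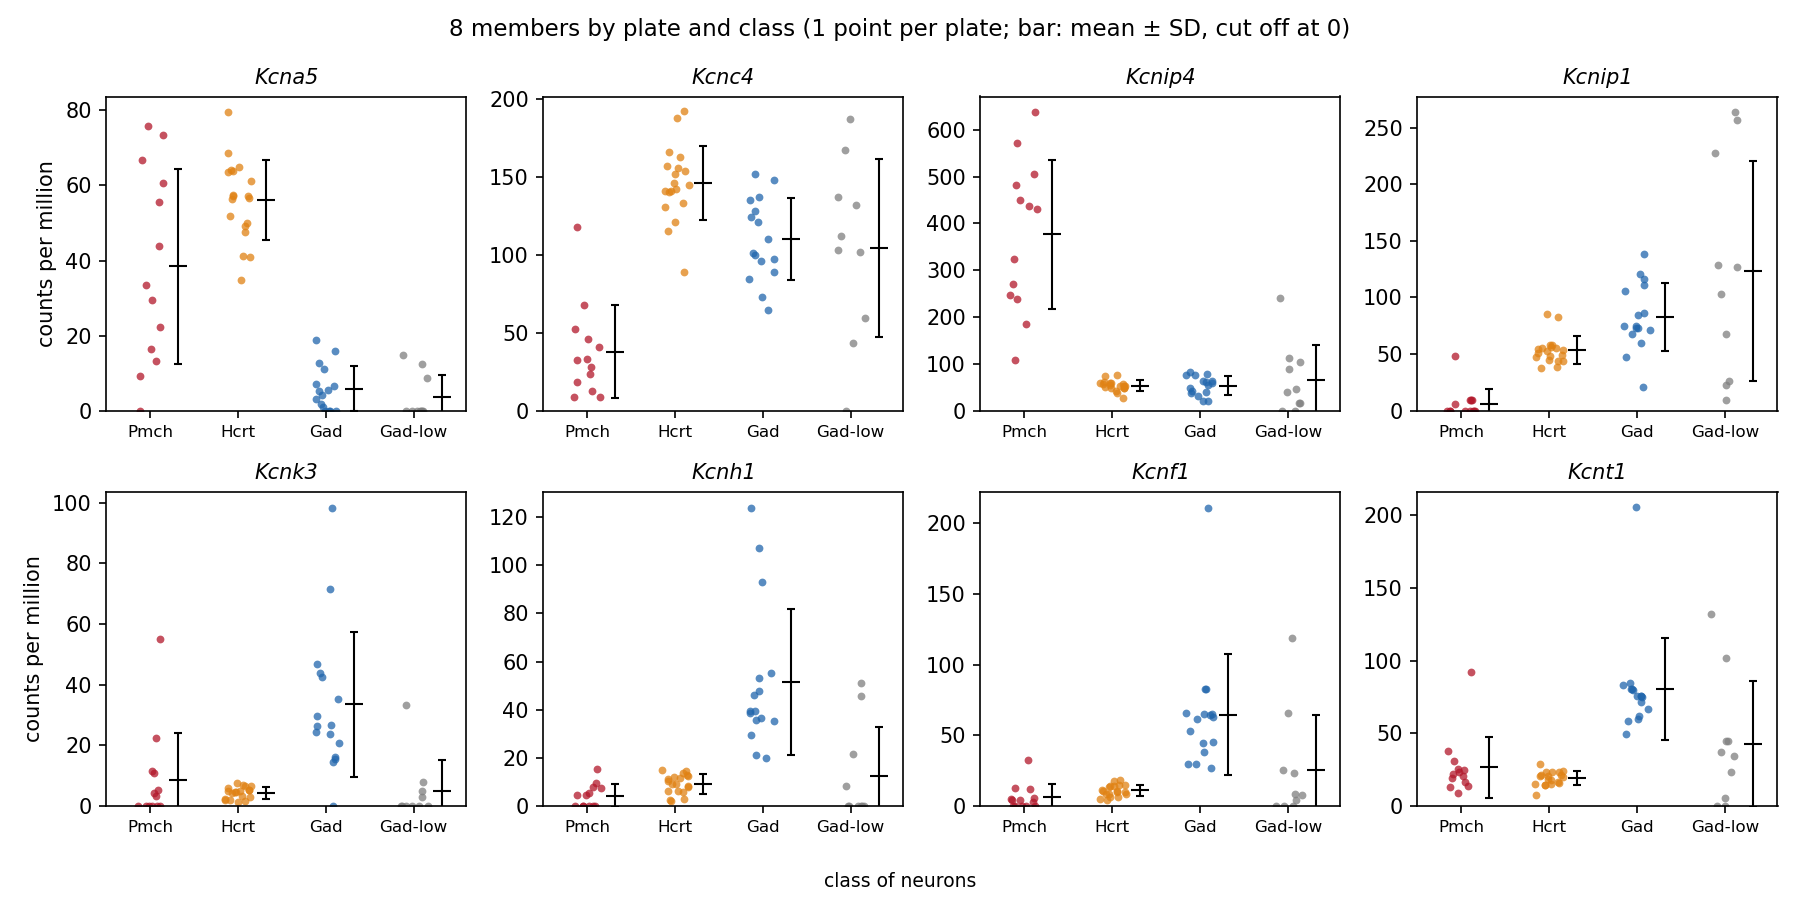
CPM (y axes) of 8 members in every plate (points) of Pmch, Hcrt, Gad and Gad-low neurons (x axes), with the mean and SD as bars. Kcna5 is high in Pmch and Hcrt neurons and low in the others, Kcnip4 is high in Pmch neurons, and Kcnk3, Kcnh1, Kcnf1 and Kcnt1 are highest in mean in Gad neurons.

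Depth differs between the classes, so detection was also read after each cell was thinned to 10000 counts, which left out 10 Hcrt, 11 Gad and 4 Gad-low cells as too shallow and no Pmch cell. The 10000 counts include the peptides. The median cell held 13.5% Hcrt in Hcrt neurons and 17.7% Pmch in Pmch neurons. Fewer counts were thus left for other genes in these 2 classes. At 10000 counts Kcna5 was found in 27.9% of Pmch neurons (95% exact binomial interval 17.7% to 40.1%), 33.1% of Hcrt neurons (30.2% to 36.0%), 2.85% of Gad neurons (1.31% to 5.34%) and 4.48% of Gad-low neurons (0.933% to 12.5%). The intervals here pool the cells of all plates as if independent, and leave out variation between plates and mice. Before thinning the shares were 57.4% of Pmch, 62.5% of Hcrt, 7.65% of Gad and 7.04% of Gad-low neurons. Kcnk3 was found in 3.70% of thinned Hcrt neurons (2.64% to 5.02%), against 20.6% of Gad neurons (16.2% to 25.5%), and before thinning in 10.9% of Hcrt and 36.1% of Gad neurons. Kcnh1 was found in 6.82% of Hcrt neurons (5.38% to 8.52%), against 24.1% of Gad neurons (19.4% to 29.2%), and before thinning in 16.3% of Hcrt and 35.8% of Gad neurons. For Kcnip4 the thinned shares were 72.1% of Pmch neurons (59.9% to 82.3%) and 28.8% of Hcrt neurons (26.1% to 31.7%), and before thinning 86.8% of Pmch and 53.5% of Hcrt neurons. Kcnip1 was found in 4.41% of Pmch neurons (0.919% to 12.4%) and 29.4% of Hcrt neurons (26.6% to 32.2%), and before thinning in 8.82% of Pmch and 56.0% of Hcrt neurons.

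**Figure D4:**
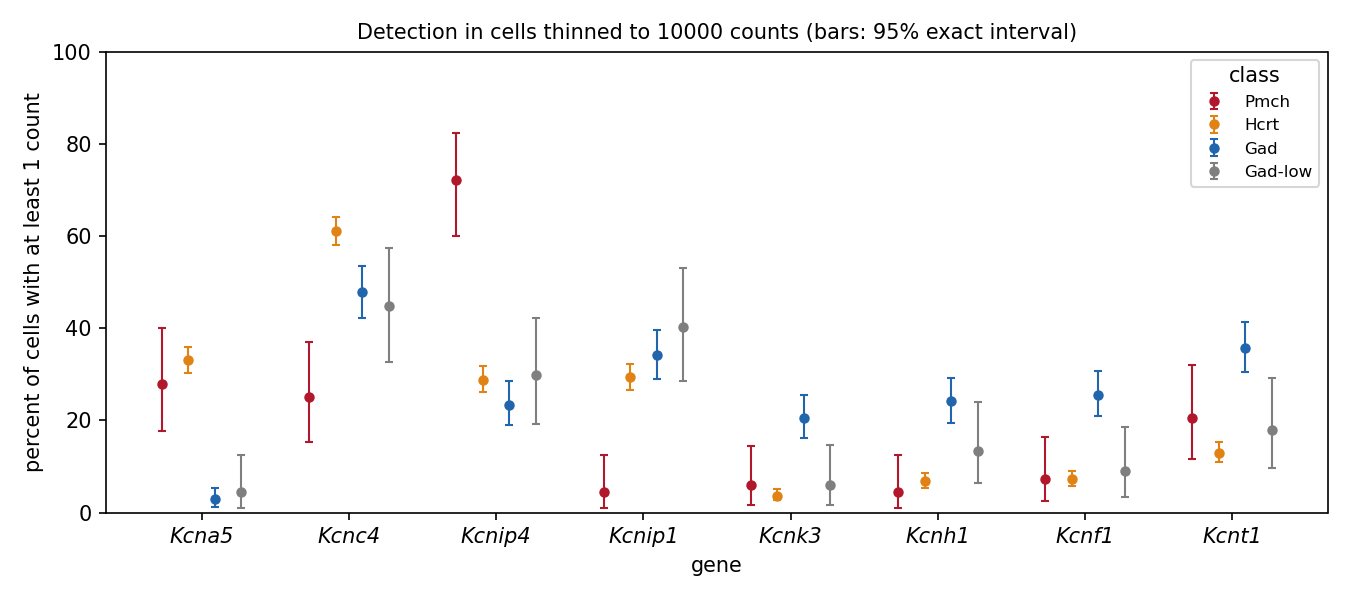
Percent of cells with at least 1 count (y axis) of 8 members (x axis) in Pmch, Hcrt, Gad and Gad-low neurons after thinning each cell to 10000 counts (Hcrt and Pmch included), with 95% exact binomial intervals as bars. The bars pool cells of all plates and leave out variation between plates and mice. Kcna5 reaches 27.9% of Pmch and 33.1% of Hcrt neurons but 2.85% of Gad neurons, and Kcnip4 reaches 72.1% of Pmch neurons.

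Few of the members tested passed between Hcrt and Gad-low neurons, at 9.09%, near the 6.98% of all genes. Only 59 Gad-low cells entered, so members that did not pass may still differ. Over 10 plates (472 Hcrt and 59 Gad-low cells), 22 members were tested, 1 was higher and 1 was lower in Hcrt neurons; 6.98% of all genes passed, 6.27% higher and 0.702% lower, and 8 members had an unadjusted p under 0.05. The median log2 fold change was 0.24 over the members and 0.28 over all genes. Without TMM, and with library sizes that leave out Hcrt and Pmch, 1 member was again higher and 1 lower, while all genes split into 243 higher and 87 lower, against 474 higher and 53 lower with TMM, and their median was 0.04. Kcna5 had 41.0, 56.8 and 79.6 CPM in Hcrt neurons, against 0, 0 and 14.9 CPM in Gad-low neurons. The classes did not overlap, and the log2 fold change was 3.93 ± 0.66 (SE, edgeR adjusted p = 3.99e-05); with the neuron gate, over 9 plates, it was 3.63 (adjusted p = 1.42e-05). Kcna2 had 9.91, 14 and 29.6 CPM in Hcrt neurons, against 0, 56.6 and 291 CPM in Gad-low neurons, where plates ran from none to the highest of the comparison. Its log2 fold change was -1.79 ± 0.53 (adjusted p = 0.0267), and -1.92 with the neuron gate (adjusted p = 0.00749). The Kcna2 call was lost without any of plates 2, 3, 8, 9, 14 or 18 (up to 0.132) and with no filter on low counts (0.07).

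With the neuron gate 1 member was higher and 5 were lower in Hcrt than in Gad-low neurons, where 9.13% of all genes were higher and 2.04% lower. The median log2 fold change was then -0.125 over the members and 0.21 over all genes, so the median of the members changed sign. Among the members named by rule, Kcnd2 (log2 fold change -1.47, adjusted p = 0.0392) and Kcnc1 (-1.02, 0.0333) passed with the gate, whereas over all wells they were at -1.09 ± 0.51 (adjusted p = 0.22) and -0.68 ± 0.39 (0.353). The other members called with the gate were Kcna5, Kcna2, Kcnip1 (-1.09, adjusted p = 0.028) and Kcnk1 (-1.57, 0.00737). Kcnma1, at 1.06 ± 0.39 on the log2 scale, and Kcnj11, at 1.12 ± 0.67, did not pass, with adjusted p of 0.0943 and 0.382, and neither did Kcnj9, at 0.94 ± 0.53. With the gate these log2 fold changes were smaller, at 0.69 for Kcnma1, 0.79 for Kcnj11 and 0.53 for Kcnj9, and none passed. Kcnma1 did pass in 1 fit over 4 classes (1.04, adjusted p = 0.00421). Over all wells, none of 8 accessory genes tested passed and 1 of 7 pump genes did, where 6.98% of all genes passed. That gene was Atp1b3, higher in Hcrt neurons by 1.19 on the log2 scale (adjusted p = 0.00678). Its call was lost without TMM and with library sizes that leave out Hcrt and Pmch (0.0636).

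Pmch neurons were set against the Hcrt neurons of the same 13 plates (61 Pmch and 756 Hcrt cells). These Hcrt libraries also serve in the comparisons above, so the comparisons are not independent. Of the KChIP members, Kcnip4 was much higher in Pmch neurons, and Kcnip1 and Kcnip2 were lower. Of 23 members tested, 11 passed, or 47.8%, against 30.6% of all genes. In Pmch neurons 2 members were higher, where 13.2% of all genes were, and 9 were lower, where 17.5% of all genes were. The other 30 members were not tested and went both ways (below), so these counts do not describe the whole family. Summed over plates of each class, the coding members averaged 1260 CPM in Pmch and 1130 CPM in Hcrt neurons. The median log2 fold change was -0.45 over the members and -0.12 over all genes.

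Among the 23 members tested, the KChIP subunits held the largest log2 fold changes in both directions. Kcnip4 had 109.1, 430 and 639 CPM in Pmch neurons, against 36.7, 53.1 and 77.1 CPM in Hcrt neurons. The lowest Pmch plate was above the highest Hcrt plate, and the log2 fold change was 2.65 ± 0.15 (SE, edgeR adjusted p = 3.02e-18), with Pmch higher in 13 of 13 plates. Kcnip1 had 0, 0 and 48.0 CPM in Pmch neurons, against 37.5, 53.6 and 85.4 CPM in Hcrt neurons. The only overlap came from the highest Pmch plate, and Kcnip1 fell by 3.61 ± 0.49 on the log2 scale (adjusted p = 2.48e-07), from 18 counts in Pmch and 1737 in Hcrt neurons. Kcnip2 had 0, 13.4 and 30.6 CPM in Pmch neurons, against 19.8, 27.8 and 43.6 CPM in Hcrt neurons, and was lower in 11 of 13 plates. It fell by 1.36 ± 0.39 on the log2 scale (adjusted p = 0.00608). Of the Kv4 pores these subunits bind, Kcnd3 had 0, 11.2 and 44.7 CPM in Pmch neurons, against 12.7, 27.8 and 33.7 CPM in Hcrt neurons. It fell by 1.14 ± 0.38 on the log2 scale (adjusted p = 0.0199), a call lost without plate 6 (adjusted p = 0.0592). Kcnd2, the other Kv4 pore tested, did not pass, at 0.29 ± 0.33.

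In the Kv3 family, Kcnc4 had 8.73, 32.6 and 117.6 CPM in Pmch neurons, against 121, 146 and 192 CPM in Hcrt neurons. All 13 Pmch plates were below all Hcrt plates, and Kcnc4 fell by 2.15 ± 0.21 on the log2 scale (adjusted p = 3.91e-11). Kcnc1 had 0, 23.7 and 67.7 CPM in Pmch neurons, against 34.6, 56.8 and 70.3 CPM in Hcrt neurons. It was lower in 12 of 13 plates, with a log2 fold change of -1.28 ± 0.28 (adjusted p = 0.000307). Kcnc2 did not pass, at -0.01 ± 0.21, so within this family the test called 2 members and not the third tested. Among Kv1 channels, Kcna4 had 4.23, 33.4 and 168 CPM in Pmch neurons, against 3.08, 9.82 and 21.8 CPM in Hcrt neurons. The ranges overlapped, and Kcna4 was higher in 12 of 13 plates, with a log2 fold change of 1.69 ± 0.35 (adjusted p = 0.000195). Kcna5 had 0, 33.6 and 75.9 CPM in Pmch neurons, against 41.0, 57.1 and 79.6 CPM in Hcrt neurons. Its log2 fold change was -0.76 ± 0.29 (adjusted p = 0.0454), lower in 7 of 13 plates, and the call was lost without any of plates 4, 5, 6, 8, 10, 18 or 19 (up to 0.136) and in 3 other settings (up to 0.16). Kcna2 was at 0.09 ± 0.37 and did not pass.

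Among channels opened by ions, Kcnma1 had 16.3, 60.7 and 104.8 CPM in Pmch neurons, against 74.0, 96.4 and 113.3 CPM in Hcrt neurons. It was lower in each of the 13 plates, with a log2 fold change of -0.90 ± 0.19 (adjusted p = 0.000212), while Kcnt1 did not pass at 0.36 ± 0.33. Kcnj11 had 0, 4.47 and 56.0 CPM in Pmch neurons, against 12.9, 22.2 and 33.5 CPM in Hcrt neurons. The highest plate was a Pmch one, yet 10 of 13 plates were lower in Pmch neurons, and Kcnj11 fell by 1.5 ± 0.49 on the log2 scale (adjusted p = 0.0156), a call lost with at least 5 cells per plate and class (-1.19 over 6 plates, adjusted p = 0.161). Kcnj9 was at -0.56 ± 0.26 (adjusted p = 0.108) and Kcnb2 at -0.19 ± 0.34 on the log2 scale, and neither passed. The K2P channels tested, Kcnk1 at 0.63 ± 0.29 and Kcnk2 at 0.76 ± 0.35, did not pass either, nor did Kcnh2 at -0.83 ± 0.37. Kcnq1ot1 had a log2 fold change of -0.45 ± 0.15 (adjusted p = 0.0167), a call lost without plate 13 (adjusted p = 0.0632) and in 2 other settings (up to 0.0744).

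**Figure D5:**
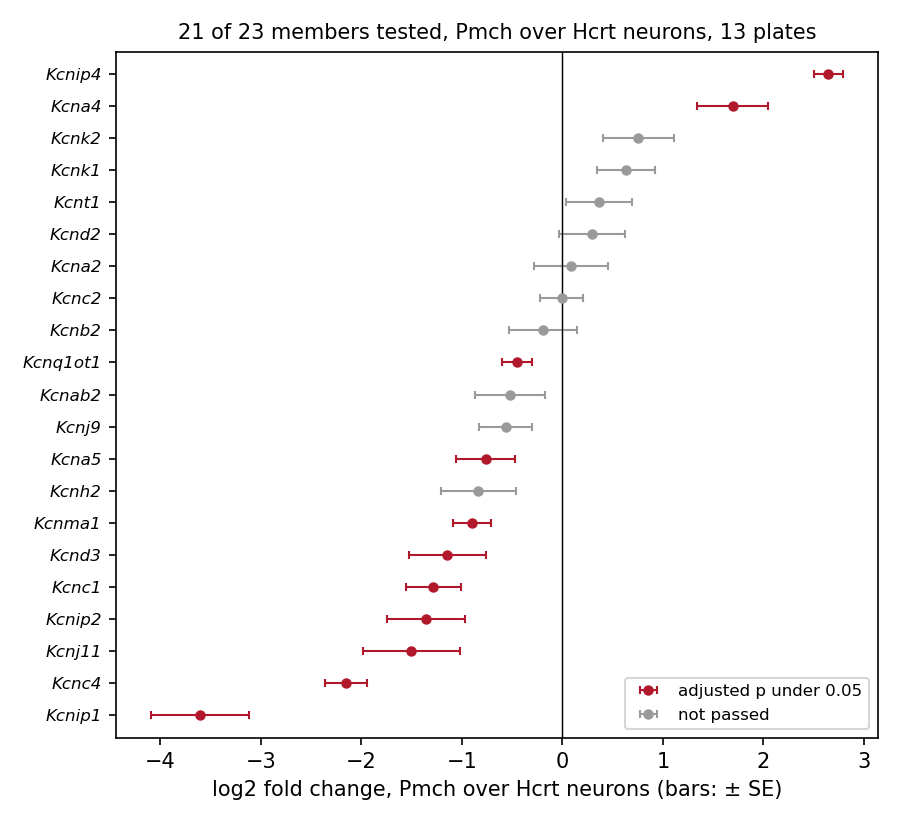
Log2 fold change of Pmch over Hcrt neurons (x axis) with its SE for 21 of the 23 members tested over 13 plates (y axis); red points passed an adjusted p of 0.05. Kcnip4, at 2.65, and Kcnip1, at -3.61, stand at the 2 ends.

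The other 30 members were under the count filter in the 61 Pmch neurons. Kcns3 had 0 counts in Pmch and 167 in Hcrt neurons, at least 6.06-fold lower against a floor of 3 counts over the class, and Kcne1l had 0 in Pmch and 74 in Hcrt neurons, at least 2.68-fold lower. Kcnj5 had 4 counts in Pmch and 260 in Hcrt neurons, a ratio of 0.141 (95% exact counting interval 0.0382 to 0.366), and Kcna1 had 1 in Pmch and 211 in Hcrt neurons, a ratio of 0.0436 (0.0011 to 0.245). In the other direction, Kcnmb4, the neuronal beta subunit of BK channels, had 82 counts in Pmch and 77 in Hcrt neurons, a ratio of 9.79 (7.09 to 13.5), and was higher in 9 of 13 plates. Kcnq3 had 86 counts in Pmch and 161 in Hcrt neurons, a ratio of 4.91 (3.73 to 6.42), and Kcnn3 had 84 in Pmch and 245 in Hcrt neurons, a ratio of 3.15 (2.43 to 4.05), higher in 11 of 13 plates. Others went both ways, with Kcnt2 (ratio 9.96) and Kcnn1 (8.71) higher in Pmch neurons and Kcnk13 (0.306) and Kcnf1 (0.509) lower. Kcnk3 had 0, 3.38 and 55.1 CPM in Pmch neurons against 1.28, 3.13 and 7.4 CPM in Hcrt neurons. Kcnj3 had 24 counts in Pmch and 365 in Hcrt neurons, a ratio of 0.604 (0.382 to 0.914). As above, these intervals cover counting error only, and the genes outside the naming rule were chosen after their values were seen. Kcns3, Kcne1l and Kcnj5 became members only through Hcrt neurons, the class where they are high.

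Of the accessory genes, 3 of 9 tested were higher and 2 lower in Pmch than in Hcrt neurons, against 13.2% higher and 17.5% lower among all genes, with a median log2 fold change of 0.10. Dpp10 averaged 43.8 ± 20 CPM in Pmch neurons and 7.33 ± 3.32 CPM in Hcrt neurons (SD, n = 13 each), a log2 fold change of 2.51 ± 0.36 (SE, adjusted p = 4.41e-07). Dpp6, the other Kv4 partner of this kind, averaged 99.7 ± 19.8 CPM in Pmch neurons and 151 ± 15.5 CPM in Hcrt neurons, with no overlap of plates, and fell by 0.63 ± 0.13 (adjusted p = 0.000177). Adam22 and Cntnap2 were higher, by 1.03 and 0.79 on the log2 scale, and Amigo1, a Kv2 partner, was lower by 0.74. Of the pump and cotransporter genes, 5 of 8 tested were higher, where 13.2% of all genes were, from 0.30 (Atp1b1) to 1.11 (Atp1b3) on the log2 scale, and 1 was lower. That gene was Slc12a5, the neuronal potassium-chloride exporter, with 85.3 ± 41.9 CPM in Pmch neurons and 243 ± 31.6 CPM in Hcrt neurons, no overlap of plates and a log2 fold change of -1.61 ± 0.16 (adjusted p = 7.22e-11).

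Gad neurons were last set against Gad-low neurons over 10 plates (257 Gad and 59 Gad-low cells). With edgeR none of 15 members tested passed, 2 had an unadjusted p under 0.05 and DESeq2 called 0, where 0.777% of all genes passed, 0.648% higher and 0.13% lower. The median log2 fold change was 0.34 over the members and 0.12 over all genes. Kcnma1 averaged 106.6 ± 49.1 CPM in Gad neurons and 57.0 ± 36.9 CPM in Gad-low neurons (SD, n = 10 each), a log2 fold change of 0.91 ± 0.41 (SE, adjusted p = 0.564). Kcnt1 averaged 74.3 ± 7.45 CPM in Gad neurons and 42.4 ± 43.4 CPM in Gad-low neurons, a log2 fold change of 1.09 ± 0.50 (adjusted p = 0.584). Kcnd2 was at 0.60 ± 0.47, Kcnc1 at 0.55 ± 0.34 and Kcnj9 at 0.70 ± 0.58 on the log2 scale. With the neuron gate, over 9 plates, none of 14 members tested passed and the median was 0.147 over the members. The log2 fold changes were then 0.57 for Kcnma1, 0.79 for Kcnt1, 0.28 for Kcnd2, 0.27 for Kcnc1 and 0.36 for Kcnj9. In 1 fit over 4 classes 5 members passed, all higher in Gad neurons, which were Kcnma1 (0.95, adjusted p = 0.0288), Kcnf1 (1.77, 0.0276), Kcnh1 (2.19, 0.00637), Kcnk3 (2.31, 0.0264) and Kcnk13 (2.55, 0.0164). Of these only Kcnma1 passed the count filter of the fit of the pair. The fit over 4 classes tested more members than the fit of the pair. The share of all genes that passed in it, or with the gate, is not given here.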

How the data were processed

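Counts were deposited by the authors as whole numbers per gene and well, and their table of wells gives, per the file headers, each well's percent of ERCC spike-in counts. The submitters' processing notes name STARsolo and STAR (each 2.7.5c), cutadapt 2.1.0, bcl2fastq 2.20, R 3.4.3 and Seurat 2.3.4, and the build GRCm38. Which annotation was used, whether counting was stranded and how molecular identifiers were collapsed are not given in the sources used here. Wells were tied to plates through the table of wells, and ERCC features were left out of library sizes.

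LHA wells with at least 1000 genes were classed by Hcrt and Pmch (at least 1% of counts) and Gad1 plus Gad2 (at least 5 counts). Raw counts were summed per plate and class, and pairs of classes were compared in plates with at least 3 cells of both, since cells are not replicates. Tests used edgeR 4.0.16 (R 4.3.3; TMM, filterByExpr, robust quasi-likelihood fit) with plate as a block, because both classes of a pair come from the same plates, and Benjamini-Hochberg adjustment over all genes tested. The SE is the log2 fold change over the square root of F. DESeq2 1.42.0 was an alternative. The edgeR fit was tested on counts simulated per plate and class, for Hcrt against Gad and Pmch against Hcrt only. Doublets were not called; the 3 cells with both peptides were left out. Plates held 44 to 86 kept cells with medians of 20676.5 to 95062.5 counts, from 1 instrument and 1 run.

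The genes named with full values are, in each comparison, up to 8 called members per direction by size of change, and a fixed set (Kcnk3, Kcnk9, Kcnj11, Kcnj3, Kcnj6, Kcnj9, Kcnq3, Kcnma1, Kcnd2 and Kcnc1); some genes these rules take are not reported here. The members and lists were chosen with earlier results of these data known. Other settings tried were RLE size factors, library sizes without Hcrt and Pmch and no TMM, DESeq2, no filter, no block, at least 5 cells, a neuron gate (at least 2000 counts, at most 20% mitochondrial, at least 5 of 8 pan-neuronal genes, each non-neuronal list below the pan-neuronal one), Gad and Gad-low neurons under 0.2% of both peptides, Gad neurons at 20 counts, cells thinned to 10000 counts and 1 fit over 4 classes. Leaving out each plate in turn (49 fits) was chosen after seeing the data. Gene positions are from GENCODE M21 (53 of 53 matched) and promoters from RefSeq.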

Additional observations from a re-analysis of the deposited data

Results flagged for a closer look

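In Gad-low neurons, Kcnj11 reached 132 CPM in plate 5, far from the next plate at 34.6 CPM; that plate held 3 Gad-low cells and 4 counts of the gene. In Gad neurons of the plates compared with Gad-low neurons, Kcnd2 reached 169 CPM in plate 2, where the next plate held 111.1 CPM, from 4 cells and 8 counts. These 2 came from 22 groups of plates examined, and chance gives about 1 in 20. One well of plate 15 labelled Empty held 245 member counts, against at most 3 in each other well labelled as ERCC or empty. It held 100707 counts and 5653 genes in all, 67 counts of Gad1 and Gad2 and counts of 24 members, with 0.158% of its counts from Hcrt. It enters no comparison.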

How the results depend on the processing

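The classes sit in the same plates, so plate was the block. Without it the calls were 22 (Hcrt against Gad), 6 (Hcrt against Gad-low, where the block gave 2), 13 (Pmch against Hcrt) and 0 (Gad against Gad-low). These are counts of members only, and the share of all genes called without the block is not given here.

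For Hcrt against Gad, 22 calls became 12 with Gad neurons under 0.2% of both peptides (10 plates) and 10 of 13 tested after thinning, and 20 to 24 when a plate was left out. For Hcrt against Gad-low, 2 became 5 with DESeq2, 6 with the neuron gate, 0 of 6 tested after thinning, 11 in 1 fit over 4 classes and 1 to 3 without a plate. For Pmch against Hcrt, 11 became 25 of 53 tested with no filter, 4 of 6 tested after thinning and 9 to 13 without a plate. For Gad against Gad-low, 0 became 1 with no filter and 5 in 1 fit over 4 classes. These are counts of members only. The share of all genes that passed also moved, from 6.98% to 11.2% for Hcrt against Gad-low with the neuron gate. For the other counts of this paragraph it is not given, so they do not tell whether members moved apart from all genes. Thinning leaves fewer counts and so fewer genes tested; the other causes were not tested. Dropping TMM together with taking library sizes without Hcrt and Pmch moved the median log2 fold change of all genes to -0.16 against 0.04 (Hcrt over Gad) and to 0.04 against 0.28 (Hcrt over Gad-low).

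No called member described by the naming rule changed sign. Among members described by that rule that did not pass, those listed next did (log2). For members outside the rule that did not pass, changes of sign are not given here. Hcrt over Gad: Kcnj9 at -0.028 and Kcnma1 at -0.152 with that scaling; Kcnma1 also at -0.021 with at least 5 cells, -0.061 under 0.2%, -0.09 at 20 Gad counts, -0.011 thinned and -0.018 to 0.13 without a plate. Pmch over Hcrt: Kcnj9 at 0.105 with at least 5 cells. Pmch and Gad-low neurons are few (61 and 59 cells compared), which limits what their tests can show.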
